A study of Mus musculus with 96 samples.

Results

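The mRNA of 9 G protein-coupled receptors was followed in pancreatic islets of mice fed a high-fat diet (HFD) or a chow diet (CD). The receptor genes were Glp1r, Gipr, Gcgr, Ffar1, Gpr119, Chrm3, Adra2a, Sstr3 and Galr1, chosen by name as incretin, glucagon, fatty acid, muscarinic and inhibitory receptors of islet cells. These receptors were chosen with earlier results of these data known. They are 9 of the 20155 genes with values in the deposited table, which lists 21990. The mice were male C57BL/6N animals, bought at 4 weeks of age, and their CD (LabDiet) or HFD (Research Diets) lasted 4, 8, 12, 16, 20 or 24 weeks. Each diet and week had 4 mice, so that 48 islet libraries fell into 12 groups, and 48 liver libraries came from the same mice. Islets were freed by collagenase, picked by hand and sequenced as poly(A) RNA, so that each value is a bulk mixture of islet cells and of any exocrine cells that remained. Age, time on diet and day of collection cannot be told apart within a diet, and the 2 diets differ in more than fat.

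Insulin release by beta cells is raised or lowered by hormones, nutrients and nerves through such receptors. The receptors for GLP-1 (Glp1r), GIP (Gipr) and glucagon (Gcgr), and the lipid receptor Gpr119, couple to Gs and raise cAMP. Ffar1 (GPR40), which binds long-chain fatty acids, and the muscarinic receptor Chrm3 couple mainly to Gq and release calcium from stores. The adrenergic receptor Adra2a, the somatostatin receptor Sstr3 and the galanin receptor Galr1 couple to Gi and Go and restrain insulin release.

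All 9 receptors were expressed in islets. Each reached at least 1 FPKM (fragments per kilobase of transcript scaled to the mapped total) in 24 of 24 CD and 24 of 24 HFD libraries, and the lowest value of any receptor was 5.65 FPKM. In CD islets Glp1r was the most abundant, with a median of 101.9 FPKM (lowest 59.7, highest 148, n = 24 mice). Sstr3 came next at a median of 68.1 FPKM (46.9 to 90.5), followed by Gipr at 45.9 FPKM (16.9 to 68.8) and Adra2a at 39.8 FPKM (22.4 to 64.4). Ffar1 had a median of 31.8 FPKM (16.3 to 41.7). The lower levels belonged to Gcgr at 13.8 FPKM (6.86 to 19.4), Galr1 at 11.2 (7.92 to 15.6), Chrm3 at 10.3 (7.97 to 14.4) and Gpr119 at 8.5 (6.67 to 11.1). These medians pool 6 weeks, and in CD islets Gipr ranked 5 by its mean at week 4, below Ffar1, and 2 at week 8, above Sstr3. Most neighbours in this order were separated within libraries, since Glp1r exceeded Sstr3 in 23 of 24 CD libraries and Ffar1 exceeded Gcgr in 24 of 24. Gipr and Adra2a were not, with Gipr the higher in 16 of 24 CD and 10 of 24 HFD libraries, and neither were Galr1 and Chrm3, with Galr1 the higher in 15 of 24 CD and 10 of 24 HFD libraries. FPKM is a level per length of the gene model, and the models differ: that of Ffar1 has 903 bases and opens at its start codon, whereas the longest transcript of Gipr in the table has 6892 bases.

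**Figure D1:**
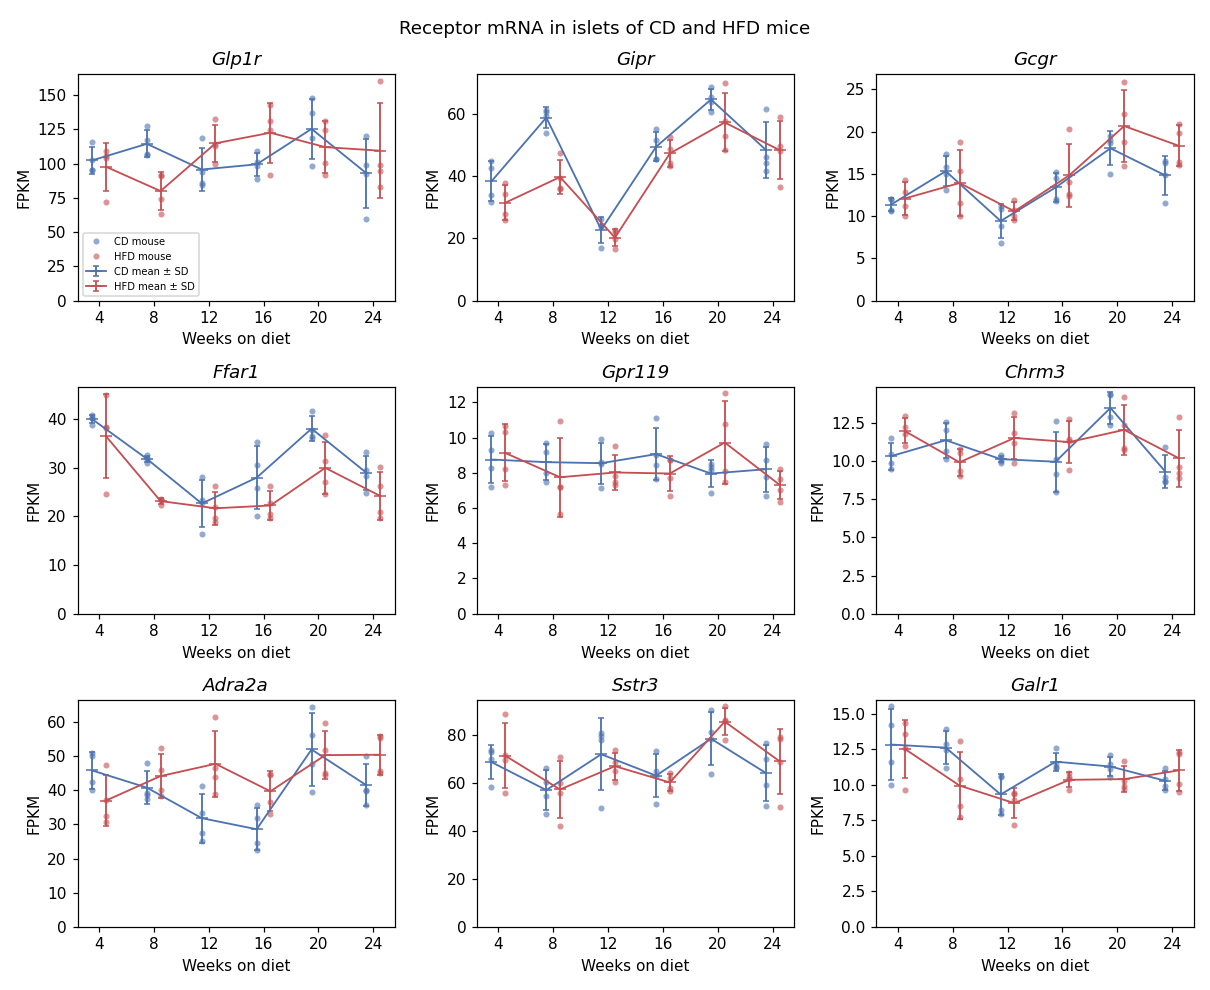
FPKM of each receptor (vertical axis, from 0) against weeks on diet (horizontal axis) in CD (blue) and HFD (red) islets, with 1 point per mouse and the mean with its SD as a line with bars, n = 4. At week 8 the 4 HFD points lie below the 4 CD points for Glp1r, Gipr and Ffar1, and Gipr is lowest at week 12 in both diets.

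The liver of the same mice served for comparison. Gcgr, through which glucagon raises hepatic glucose output, was far more abundant there than in islets, with a median of 154.8 FPKM in CD liver (113.8 to 220.5, n = 24) and 134.3 in HFD liver (110.5 to 189.1). Chrm3 had medians of 0.355 FPKM in CD and 0.795 in HFD liver and reached 1 FPKM in 4 and 9 of 24 libraries. The other 7 receptors stayed at or below 0.59 FPKM in all liver libraries, and Glp1r was listed at 0 in 16 of 24 libraries of either diet.

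The question of whether HFD shifts receptor mRNA was asked within each week. The clearest differences were at week 8, when mRNA of the incretin receptors and of the fatty acid receptor Ffar1 was lower in HFD islets. Ffar1 had 31.9, 32.6, 30.97 and 31.8 FPKM in the 4 CD mice and 22.3, 23.4, 23.5 and 23.4 FPKM in the 4 HFD mice. The groups did not overlap, and each lay within a narrow band, at 31.8 ± 0.668 (SD, n = 4) and 23.1 ± 0.555 FPKM, a mean 27.3% lower in HFD islets. Ffar1 fell by 0.44 on the log2(FPKM + 1) scale (SE 0.0533, limma adjusted p = 0.00382). This scale understates the change of low genes.

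Gipr had 59.5, 54.02, 61.2 and 60.6 FPKM in the CD mice of week 8 and 36.3, 35.8, 39.4 and 47.5 FPKM in the HFD mice. All HFD values were below all CD values, with HFD217 the highest of the HFD group. The means were 58.8 ± 3.28 and 39.7 ± 5.38 FPKM (SD, n = 4), a log2 fold change of -0.56 (SE 0.0875, limma adjusted p = 0.00871). Glp1r had 106.8, 127.1, 106.4 and 117.5 FPKM in CD and 91.7, 63.1, 73.9 and 91.1 FPKM in HFD mice. These groups were also apart, at 114.4 ± 9.85 and 79.96 ± 13.97 FPKM (SD, n = 4), and the log2 fold change was -0.52 (SE 0.116, limma adjusted p = 0.0334).

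Thus 3 of 9 receptors were called lower and 0 higher at week 8 (limma, adjusted p under 0.05), against 5.27% of the 11636 genes tested, of which 70 were higher and 543 lower. Because the receptors were chosen with earlier results of these data known, their share describes the set and is no test against all genes. The count of genes moved with single libraries, to between 116 and 297 without any 1 of 7 of them and to 1787 without HFD217, with 2 to 4 receptors called. The groups of 3 of 9 receptors did not overlap, against 17.2% of genes. The median log2 fold change was -0.18 over the 9 receptors and -0.11 over all genes. The call of Glp1r was less firm than the other 2. Its adjusted p was 0.0632 with all 12 groups in one fit, 0.0700 without a filter, 0.0769 with median ratio scaling and up to 0.0828 without 1 library, and it was lost on removal of CD203, CD205, CD207, CD208, HFD212 or HFD213. Ffar1 missed the threshold in the fit of all 12 groups (adjusted p = 0.0607), and Gipr passed in every alternative run. With median ratio scaling, which raised the median of all genes at week 8 by 0.10, 165 genes were called, 87 higher and 78 lower.

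Of the remaining receptors at week 8, Galr1 had 13.97, 11.2, 12.9 and 12.5 FPKM in CD and 8.51, 7.77, 10.4 and 13.1 FPKM in HFD mice. HFD217 lay within the CD range and the other 3 lay below it. The log2 fold change of -0.34 missed the threshold (limma adjusted p = 0.137), and without HFD217 it was -0.47 (adjusted p = 0.0183). Sstr3 differed by -0.01 with a 95% interval from -0.36 to 0.35, and its sign turned with median ratio scaling (0.11).

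Markers of other cells differed at week 8 too. The alpha cell list (7 genes, led by Gcg) summed to 13660, 12570, 11400 and 12020 FPKM in CD and to 8109, 9523, 7106 and 10330 in HFD mice, with 1 gene called higher and 4 lower. The delta cell list (3 genes, led by Sst) summed to 3424, 3682, 3610 and 3460 FPKM in CD and to 1833, 2581, 1762 and 2697 in HFD mice, with 2 genes lower. Both sums were lower in every HFD mouse than in any CD mouse. The acinar list (19 genes, led by Ctrb1) summed to 14570, 15340, 15420 and 19280 FPKM in CD and to 4193, 23210, 29950 and 44910 in HFD mice, which spread on both sides of the CD values with HFD217 the highest. Of the 10 beta cell genes, led by Ins2, 1 was called higher and 2 lower. No gene of these lists was at 0 in all islet libraries. Fewer cells of a type and less RNA per cell cannot be told apart in bulk tissue, and the part of these markers in the receptor differences was not tested.

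At the other weeks no receptor was called by limma in the main fit of each week. Some were called in other fits or scalings of all mice, as given below, and some on removal of 1 library, among them Glp1r at week 12 without CD306 (0.37, adjusted p = 0.0334), Ffar1 at week 16 without CD401 (-0.44, adjusted p = 0.0450), Adra2a at week 16 without CD405 (0.58, adjusted p = 0.0403) and at week 24 without CD606 (0.37, adjusted p = 0.0362), and Gipr at week 20 without HFD511 (-0.28, adjusted p = 0.0252). At week 4, 0 of 9 receptors passed, as did 0% of 11569 genes, with 2 receptors and 854 genes at an unadjusted p under 0.05. The 2 were Chrm3, at 0.20, and Adra2a, at -0.32 (adjusted p = 0.666 for both). At week 12, 0 of 9 passed (2 at an unadjusted p under 0.05) against 4.53% of genes, and at week 16, 0 of 9 (3 unadjusted) against 8.45%. At week 20 the counts were 0 of 9 (1 unadjusted) against 4.74%, and at week 24 they were 0 of 9 (2 unadjusted) against 8.3%. Non-overlapping groups were found for 0 of 9 receptors at week 4 (4.22% of genes), week 12 (10.4%), week 20 (14.6%) and week 24 (16.1%). At week 16 they were found for 1 of 9 (15.4% of genes), which was Galr1, with 11.3, 12.6, 11.2 and 11.5 FPKM in CD and 10.9, 10.6, 10.4 and 9.62 in HFD mice. That difference of -0.15 did not pass the test (limma adjusted p = 0.187).

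Averaged over the 6 weeks in one fit of the 48 libraries, 2 of 9 receptors were called lower and 1 higher, against 38.6% of the 12378 genes tested, a share close to that of the receptors. Ffar1 fell by 0.26 (SE 0.0615, limma adjusted p = 0.000949), with a negative estimate in each of the 6 weeks. It was also called without any single week or library and under each scaling. Its week 20 values were 41.7, 36.6, 36.2 and 37.7 FPKM in CD and 24.5, 31.4, 27.1 and 36.7 in HFD mice. Of these HFD mice, 3 lay below all CD mice and the highest lay inside the CD range (log2 fold change -0.35, limma adjusted p = 0.0902). Gipr fell by 0.21 on average (SE 0.0563, limma adjusted p = 0.00341). This call was lost when week 8 was dropped (-0.14, adjusted p = 0.0933) and after rescaling without insulin transcripts (-0.13, adjusted p = 0.057). Cell markers differed in the same mean, with 5 of 10 beta cell genes higher and 2 lower, 6 of 7 alpha cell genes lower (1 higher), 3 of 3 delta cell genes lower, and 1 of 19 acinar genes higher and 5 lower. Lower too were 6 of 6 proliferation, 2 of 2 pancreatic polypeptide, 3 of 4 Schwann (1 higher) and 2 of 5 ductal genes. Macrophage genes were higher for 2 of 7, endothelial genes higher for 2 and lower for 2 of 6, and stromal genes higher for 2 and lower for 1 of 7. At week 20, 6 of 7 alpha and 3 of 3 delta cell genes were lower, and 1 beta cell gene was higher. The acinar sum was higher in HFD islets that week, with means of 22900 ± 8762 against 11030 ± 4051 FPKM in CD islets (SD). None of the 17 acinar genes tested was called there. The part of these markers in the Ffar1 and Gipr values was not tested.

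Adra2a, which mediates the adrenergic brake on insulin release, was the receptor called higher, with a mean log2 fold change of 0.18 (SE 0.0658, limma adjusted p = 0.0267). At week 12 its values were 33.3, 41.4, 25.2 and 27.6 FPKM in CD and 39.1, 46.6, 61.6 and 43.9 FPKM in HFD mice. The groups touched, because 1 CD mouse exceeded the lowest HFD mouse, and the means were 31.8 ± 7.2 and 47.8 ± 9.72 FPKM (SD, n = 4). The difference within week 12 was 0.58 (SE 0.172, limma adjusted p = 0.101), and it passed in the fit of all 12 groups (adjusted p = 0.0174), without CD306 (adjusted p = 0.00978) and without HFD313 (adjusted p = 0.0415). At week 16 Adra2a had 31.8, 22.4, 35.6 and 24.6 FPKM in CD and 44.5, 36.5, 44.8 and 33.1 in HFD mice, again with an overlap of 1 mouse of each group. In contrast, the week 4 estimate was -0.32. The mean call was lost without week 12 (0.10, adjusted p = 0.251), week 16 (0.12, adjusted p = 0.182) or week 24 (0.16, adjusted p = 0.0898). The acinar sum was lower in HFD than in CD islets in the same weeks, with means of 29730 ± 15590 against 79820 ± 32420 FPKM at week 12 and 13070 ± 5309 against 36390 ± 9400 FPKM at week 16 (SD, n = 4). Single acinar genes were called for 0 of 18 at week 12 and for 2 of 18, both lower, at week 16, and for none in the other weeks. The HFD and CD means of the sum were 9724 ± 3972 and 16850 ± 7779 FPKM at week 4 and 25570 ± 16890 and 16150 ± 2120 at week 8. They were 22900 ± 8762 and 11030 ± 4051 at week 20 and 21240 ± 8149 and 29810 ± 12910 at week 24. The Adra2a estimates at weeks 4, 8, 20 and 24 were -0.32, 0.11, -0.03 and 0.28. Other markers differed at weeks 12 and 16 as well, with 5 of 10 beta cell genes called higher and 0 lower in each, 5 and 6 of 7 alpha cell genes lower (1 higher at week 16) and 3 of 3 delta cell genes lower in each. The part of these markers in the Adra2a values was not tested.

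**Figure D2:**
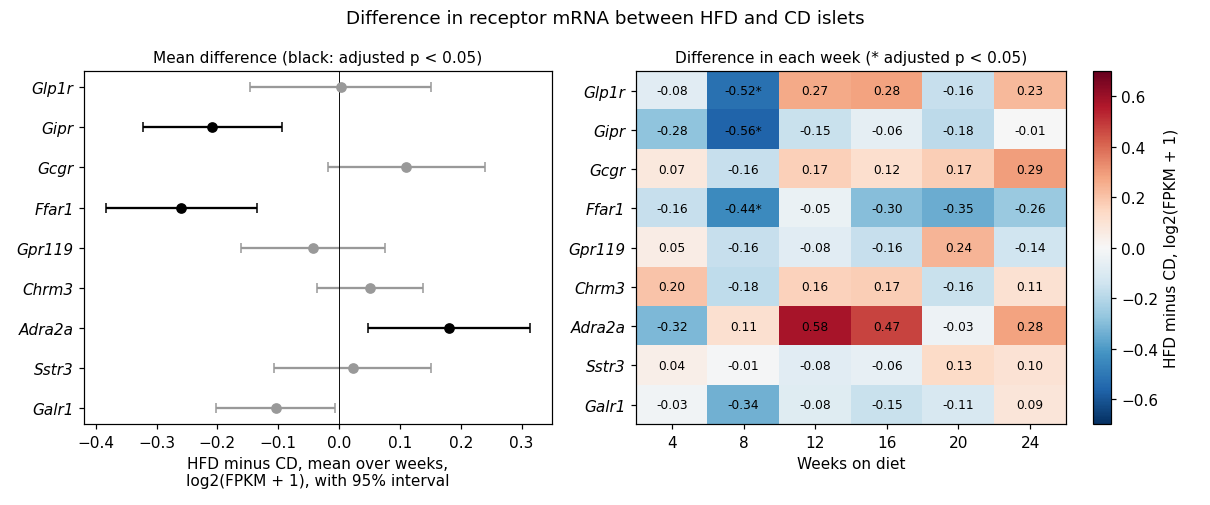
Left, mean difference between HFD and CD islets over the 6 weeks on the log2(FPKM + 1) scale (horizontal axis) for each receptor, with its 95% interval and with calls in black. Right, the difference in each week, with the color and the number giving the log2 value and a star marking an adjusted p under 0.05. Ffar1 and Gipr lie below 0 and Adra2a above 0 on average, and the 3 stars are all at week 8; with insulin left out of the total the Gipr mean is no longer called.

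For the other receptors the mean difference was not called in the main fit. The 95% interval of Glp1r ran from -0.15 to 0.15 around a mean of 0.00, with negative estimates at weeks 4, 8 and 20 and positive ones at weeks 12, 16 and 24. At week 16 Glp1r had 97.99, 101.3, 109.4 and 89.1 FPKM in CD and 143.0, 130.9, 124.8 and 91.5 FPKM in HFD mice. Of these HFD mice 3 exceeded all CD mice and HFD418 did not, and without HFD418 the difference of 0.42 passed (limma adjusted p = 0.00988, against 0.208 with all mice). The intervals of the mean were -0.11 to 0.15 for Sstr3, -0.16 to 0.08 for Gpr119, -0.04 to 0.14 for Chrm3, -0.02 to 0.24 for Gcgr and -0.20 to -0.01 for Galr1, whose adjusted p was 0.0842. Galr1 was called lower with median ratio scaling (adjusted p = 0.0494), without week 4 (0.0430) or week 24 (0.0405), and without CD101 or HFD217. Gcgr was called higher without week 8 (0.16, adjusted p = 0.0457).

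Each FPKM value depends on a library total that includes the insulin transcripts, so the values were also rescaled without Ins1 and Ins2. The median of all genes shifted by 0.25 at week 12 and by 0.18 at week 16. After it Glp1r (0.56), Gcgr (0.43), Adra2a (0.86) and Chrm3 (0.43) were called higher at week 12, and Glp1r (0.48) and Adra2a (0.67) at week 16. So were many genes, since 2896 of the 11305 tested were called higher at week 12 and 4805 of 11673 at week 16. Ffar1 was then called lower at week 20 (-0.42, adjusted p = 0.0465), as were 1056 of 11702 genes, and the means of Gcgr (0.18, adjusted p = 0.0185) and Chrm3 (0.12, adjusted p = 0.0273) were called higher, as were 4444 of 12389 genes (2060 in the main fit). Estimates of Gipr, Gpr119, Sstr3 and Galr1 turned from negative to positive at weeks 12 and 16, and that of Ffar1 at week 12. Differences in those weeks thus depend on the total used.

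Whether the diet difference itself changed with time was tested directly. Late weeks (16, 20 and 24) minus early weeks (4, 8 and 12) gave 0 of 9 receptors called by limma, with 1 at an unadjusted p under 0.05, against 3.16% of genes. That receptor was Gipr, whose difference was less negative late than early by 0.25 (95% interval 0.02 to 0.48, adjusted p = 0.226). An F test of diet by week, chosen after seeing the data, also called 0 of 9 (3 of them under 0.05 before adjustment) against 4.25% of genes, with the lowest adjusted p for Adra2a at 0.0634. The calls at week 8 were thus not shown to differ from the other weeks.

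Receptor mRNA also varied between weeks. Gipr had CD means of 38.3 ± 6.39, 58.8 ± 3.28, 22.8 ± 4.13, 49.5 ± 4.66, 64.6 ± 3.42 and 48.4 ± 8.92 FPKM from week 4 to week 24 (SD, n = 4). HFD means were 31.4 ± 5.56, 39.7 ± 5.38, 20.3 ± 2.81, 47.3 ± 4.32, 57.2 ± 9.32 and 48.4 ± 9.24 FPKM. Both diets thus had their trough at week 12 and their peak at week 20, and the highest weekly mean was 2.83 times the lowest in either. The acinar sum also differed between weeks. Its mean was highest at week 12 in both diets (79820 ± 32420 FPKM in CD and 29730 ± 15590 in HFD islets) and lowest at week 20 in CD (11030 ± 4051) and at week 4 in HFD islets (9724 ± 3972; SD, n = 4). Its part in the receptor differences between weeks was not tested. An F test between weeks, chosen after seeing the data, called 6 of 9 receptors in CD (77.6% of genes) and 6 of 9 in HFD islets (81.4% of genes), so the receptors did not stand out. Gipr had the lowest adjusted p of the 9 in both, at 3.48e-09 in CD and 6.83e-08 in HFD islets (limma). Ffar1 in CD islets went from 40 ± 0.912 FPKM at week 4 to 22.6 ± 4.82 at week 12 and 38 ± 2.51 at week 20. Glp1r and Gpr119 were not called between weeks in either diet, and the weekly means of Gpr119 in CD islets lay between 7.96 and 9.06 FPKM. No steady drift was found, since the slope over weeks in CD islets was called for 0 of 9 receptors by limma (1 at an unadjusted p under 0.05) against 4.27% of genes. That receptor was Gcgr, at 0.02 log2 units per week (adjusted p = 0.149).

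Genes for peptide ligands, signaling partners and related receptors were counted in lists. Of 12 genes for peptide hormones, neuropeptides and their processing, of which Ppy, Npy, Pyy, Vip and Adcyap1 encode ligands of other receptors than the 9, 10 were tested in the mean over weeks, with 9 lower and 0 higher, where 38.6% of all genes were called, and a median log2 fold change of -1.22 (-0.01 over all genes). Gcg, which encodes glucagon and GLP-1 and so the ligands of Gcgr and Glp1r, was 11480 ± 907 FPKM in CD and 7753 ± 1458 in HFD islets at week 8 and 10210 ± 2592 against 1358 ± 468 at week 24 (SD, n = 4), a log2 fold change of -2.93 at week 24 (limma adjusted p = 0.00266). Sst, the ligand of Sstr3, fell by 2.66 at week 24 (adjusted p = 0.000339), to 409 ± 138.5 FPKM from 2520 ± 310. Gal, the ligand of Galr1, was low at 7.08 ± 3.02 FPKM in CD and 1.21 ± 0.443 in HFD islets at week 12 and fell by 1.82 (adjusted p = 0.0168). The convertases Pcsk1 and Pcsk2 fell by 0.17 and 0.10 on average. Gcg and Sst are also counted in the alpha and delta cell sums, and Ppy and Pyy, both lower, are the 2 markers of pancreatic polypeptide cells, so that cell number and RNA per cell cannot be told apart for them.

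Signaling genes were called about as often as all genes, of which 38.6% passed in the mean over weeks. Of 28 genes of Gs and cAMP, 23 were tested in the mean over weeks, with 1 higher and 7 lower and a median of -0.05. The calmodulin-dependent phosphodiesterase Pde1c fell by 0.28 and the adenylyl cyclase Adcy3 by 0.22 (limma adjusted p = 0.000122 and 8.01e-05). Of 18 genes of Gq and phospholipase C, 15 were tested, with 0 higher and 6 lower. The calcium store channels Itpr1 and Itpr3 fell by 0.60 and 0.47, and Itpr1 was 11.2 ± 1.48 FPKM in CD and 6.52 ± 1.36 in HFD islets at week 12 (SD, n = 4). Of 13 genes of Gi and Go, 1 was higher, the regulator Rgs16 (0.45), and 3 were lower, led by Gnai1, an inhibitory G protein subunit that fell by 0.48 on average and by 0.82 at week 24. In the mean and at week 24, 6 of 7 alpha (1 higher) and 3 of 3 delta cell genes were lower too. At week 12, 5 of 7 and 3 of 3 were. The part of these markers in the values of the signaling genes was not tested.

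Related receptors were mostly low in islets. In the fatty acid and lipid list, 8 of 14 genes were tested, with 0 higher and 3 lower in the mean, near the 38.6% of all genes that were called there. Ffar4 (GPR120), like Ffar1 a receptor of long-chain fatty acids, was 2.73 ± 0.139 FPKM in CD and 1.84 ± 0.507 in HFD islets at week 8 and 2.88 ± 0.273 against 0.42 ± 0.129 at week 24 (SD, n = 4). It fell by 1.45 at week 24 (limma adjusted p = 6.34e-07), and its difference was greater late than early (-0.84, adjusted p = 2.73e-08). Ffar3, a receptor of short-chain fatty acids, fell by 0.50 at week 8 (adjusted p = 0.0124). Of 14 class B receptors and partners, 7 were tested, with 1 higher and 5 lower. Vipr2 rose by 0.40 and Vipr1 fell by 0.24, and both are receptors of VIP, whose own mRNA fell by 1.84. Of 18 other members of the adrenergic, somatostatin, muscarinic and galanin families only 4 passed the filter, and 3 were lower, among them Sstr2 (-0.57), which was 1.75 ± 0.346 FPKM in CD and 0.585 ± 0.161 in HFD islets at week 12. Among 25 other islet receptors, 18 were tested, with 4 higher and 3 lower, also near the share over all genes. The thrombin receptor F2r rose by 0.79 at week 24 and the GABA-B subunit Gabbr2 by 0.41 on average, whereas the ghrelin receptor Ghsr fell by 0.38 on average. Within weeks, Ghsr differed by 0.08 at week 4 and by -0.16 at week 8 (limma adjusted p = 0.902 and 0.372). After week 8 it was too low to pass the filter of a single week. Alpha and delta cell markers were lower in the same comparisons, with 6 of 7 and 3 of 3 genes at week 24, in the mean and late minus early, and 5 of 7 and 3 of 3 at week 12. At week 24 and in the mean, 1 alpha cell gene was called higher. At week 24, 3 of 5 tested endothelial and 3 of 6 tested stromal genes were called higher and 0 lower. The part of all these markers in the values of Ffar4, Sstr2, Ghsr and F2r was not tested.

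The genes most like each receptor were found by the Pearson correlation of log2(FPKM + 1) over the 48 islet libraries among 8060 genes of at least 5 FPKM on average. These values describe libraries that share week and diet, and carry no test. Gipr was most like Safb2 (r = 0.949), Kif12 (0.948) and Sfswap (0.943), and Gcgr was most like Hook2 (0.878), Zdhhc1 (0.877) and Pdgfa (0.868). Ffar1 was most like Gnaz (0.827), Mafa (0.811) and Tpcn1 (0.793), of which Mafa is a beta cell transcription factor. Glp1r had Epb41l3 (0.761), Acly (0.744) and AA414768 (0.732), and Adra2a had Pigv (0.842), Ina (0.831) and Hist1h4i (0.791). Sstr3 had Cnn3 (0.83), Sox4 (0.813) and Tle3 (0.805), and Galr1 had Ptch1 (0.777), Ddi2 (0.766) and Tbl1x (0.755). Chrm3, with Immt (0.651), Smg5 (0.649) and Dlst (0.626), and Gpr119, with Amigo2 (0.522), Aacs (0.519) and Lrch1 (0.514), had the lowest top values. Among the 9 receptors themselves the closest pair was Gipr and Gcgr (0.751).

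In the table's annotation (GRCm38), Ffar1 (Entrez 233081) spans chr7:30860568-30861470 on the minus strand as a single transcript, and Gipr (381853) lies on the same chromosome at chr7:19156063-19170248, minus strand. Glp1r (14652) spans chr17:30901867-30936510 and Adra2a (11551) chr19:54045182-54049024, both on the plus strand. The RefSeq promoter set (GRCm38.p6) matched 7 of the 9 genes by symbol, all but Gipr and Galr1. The windows of Ffar1 and Glp1r, lower together at week 8, and of Adra2a, higher on average, are shown for the 250 bases before the RefSeq start, 5′ to 3′ on the gene's strand. The RefSeq start of Adra2a lies downstream of the start given above, so that its TATA box and CREB core fall inside the gene as the deposited table places it. The RefSeq model of Ffar1 opens at its start codon, and whether the bases before it are its promoter was not tested. The 3 windows lie at chr7:30861471-30861720 (minus), chr17:30901617-30901866 (plus) and chr19:54045009-54045258 (plus). Capitals mark matches on either strand to the TATA box TATAAA, the CREB core TGACG, the E-box CANNTG, its palindrome CACGTG (which is also counted as an E-box) and the homeodomain core TAATT. These motifs were chosen after the sequences had been seen.
Ffar1: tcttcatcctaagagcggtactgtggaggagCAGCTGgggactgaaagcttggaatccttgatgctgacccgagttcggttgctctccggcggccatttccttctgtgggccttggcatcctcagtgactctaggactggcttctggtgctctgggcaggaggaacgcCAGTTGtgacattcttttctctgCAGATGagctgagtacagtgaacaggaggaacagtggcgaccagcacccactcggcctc
Glp1r: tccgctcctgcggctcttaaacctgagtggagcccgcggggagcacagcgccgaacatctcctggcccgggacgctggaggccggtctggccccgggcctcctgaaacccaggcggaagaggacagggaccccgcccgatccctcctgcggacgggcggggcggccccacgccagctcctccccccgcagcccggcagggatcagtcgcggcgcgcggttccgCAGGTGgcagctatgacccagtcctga
Adra2a: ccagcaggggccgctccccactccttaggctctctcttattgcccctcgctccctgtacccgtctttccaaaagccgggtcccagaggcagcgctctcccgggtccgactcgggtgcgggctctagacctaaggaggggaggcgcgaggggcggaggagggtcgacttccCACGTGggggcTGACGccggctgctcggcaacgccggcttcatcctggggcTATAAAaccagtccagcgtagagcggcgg
The Ffar1 window held 3 E-boxes and the Glp1r window 1, and neither held another of the motifs. The Adra2a window held 1 TATA box, 1 CREB core and 1 palindrome E-box. Windows of receptors that were not called in the main fits held some of these motifs too. That of Sstr3 at chr15:78544346-78544595 had 1 CREB core and 1 palindrome E-box, and that of Gpr119 had 1 CREB core and 1 homeodomain core. The windows of Gcgr and Chrm3 and another window of Sstr3 had none of the motifs. Over the same 250 bases of 32851 RefSeq promoters, the E-box occurred in 66.2%, the homeodomain core in 25.03%, the CREB core in 17.8%, the TATA box in 12.4% and the palindrome in 6.02%. The base composition was 56.4% G and C for Ffar1, 73.2% for Glp1r and 67.6% for Adra2a. A match is a description of letters and was not tested for binding.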

How the data were processed

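Islets and liver of 48 mice were measured by RNA sequencing. FPKM values per gene and library were computed and deposited by the authors, whose processing notes name GRCm38.p5, HISAT2 2.0.4, Bowtie2 2.2.5, RSEM 1.1.12 and DESeq2. The longest transcript length of a gene is another column deposited by the authors. Columns of the authors' own comparisons (ratios, p-values) were not used. The table holds no counts, so depth and counting error are unknown; the smallest values above 0 among 75 single-transcript genes of 450 to 600 bases were 0.02 to 0.08 FPKM per library. No pair of the 48 islet libraries was identical, and correlations within groups were at least 0.975.

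The 9 receptors and the gene lists were chosen with earlier results of these data known. Named genes are all 9 receptors, list genes past an adjusted p of 0.05 in any test, and the 3 most correlated genes per receptor. The most abundant gene of a marker list and the ligand gene Adcyap1 were named apart from this rule. log2(FPKM + 1) was fitted by limma 3.58.1 (R 4.3.3) using robust variances and a trend of variance on mean, for genes of at least 1 FPKM in at least 4 libraries, with Benjamini-Hochberg adjustment over all genes tested. The fit was tested on simulated data, for which no result is given here. Python 3.11.15, numpy 2.4.6, pandas 2.3.3 and matplotlib 3.10.9 made the tables and plots. Alternatives were a pseudocount of 0.1, no filter, median ratio scaling (over genes of at least 1 FPKM in every library, since a ratio needs values above 0, where all tested genes had been planned), insulin left out of the total, all 12 groups in one fit, and leaving out libraries (then at least 3 at 1 FPKM) or weeks. The F tests, the counts of non-overlapping groups and the promoter motifs were chosen after seeing the data.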

Additional observations from a re-analysis of the deposited data

Results flagged for a closer look

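In 5 of 108 groups of 4 mice (9 receptors in 12 groups), 1 mouse lay far from the other 3 relative to the group's range, where chance gives about 5.4. Glp1r was 71.8 FPKM in HFD112 at week 4. Gcgr was 15.02 FPKM in CD502 at week 20. Ffar1 was 22.31 FPKM in HFD211 at week 8, in a group that spans little in all. Sstr3 was 49.56 FPKM in CD304 at week 12, which also had the highest acinar sum of its group (124700 FPKM). Chrm3 was 10.91 FPKM in CD606 at week 24. No receptor's diet difference was shown to change with time by the tests of late against early weeks or of diet by week.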

How the results depend on the processing

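No paired analysis was possible because CD and HFD islets come from different mice and share no replicate number. Apart from removals of 1 library, 387 of 432 receptor estimates kept their direction and side of the threshold, 9 lost the call, 14 gained it and 22 changed sign; on removal of 1 library these numbers were 1428, 6, 11 and 67. With all 12 groups in one fit, 1 receptor (Gipr) in place of 3 was called at week 8, and 17, 949, 1219, 1201 and 1620 genes were called at weeks 4, 8, 12, 20 and 24. Without a filter 154 were called at week 8 and 1637 at week 16. With median ratio scaling 165 were called at week 8 and 1235 for the slope in CD, and these receptors turned sign: Galr1 weeks 4 (0.0017), 24 (-0.00058); Sstr3 week 8 (0.11); Gpr119 late minus early (-0.016); Adra2a in the CD slope (-0.0025). With insulin left out of the total 3081, 5216 and 1200 genes were called at weeks 12, 16 and 20, 2.2e+02 (93 higher and 124 lower) late minus early and 111 for the slope in CD. Signs then turned for Galr1 weeks 4 (0.018), 12 (0.18), 16 (0.030); Gipr weeks 12 (0.12), 16 (0.13), 24 (0.023); Gpr119 weeks 12 (0.18), 16 (0.017), in the mean (0.030), late minus early (-0.0085); Ffar1 week 12 (0.23); Sstr3 weeks 12 (0.21), 16 (0.14); Chrm3 in the CD slope (0.00092). The mean of Glp1r turned without weeks 12 (-0.050), 16 (-0.053), 24 (-0.043). The cause of these shifts was not tested. Calls were 70 higher and 543 lower at week 8 (87 and 78 with median ratio scaling), 246 and 265 at week 12 (2896 and 185 with insulin left out), 386 and 602 at week 16 (of 5216, 92.1% higher with insulin left out), 179 and 376 at week 20 (144 and 1056; of 595, 51.1% higher with median ratio scaling), 79.1% of 972 higher at week 24 (400 and 370 with median ratio scaling), 2060 and 2722 in the mean (4444 and 1285 with insulin left out), 271 and 120 late minus early (146 and 168 with median ratio scaling) and 284 and 236 for the slope in CD (480 and 755; 72 and 39). Without 1 library, genes called ranged from 0 to 3 at week 4, 116 (without CD208) to 1787 (without HFD217) at week 8, 347 to 817 (without CD304) at week 12, 756 to 1069 at week 16, 140 (without HFD517) to 2207 (without HFD511) at week 20, 563 (without HFD616) to 1199 at week 24, 4469 to 5131 in the mean, 284 to 868 (without CD304) late minus early and 265 (without CD103) to 729 for the slope in CD; receptors called ranged from 2 to 4 at week 8 and 3 to 4 in the mean. Estimates whose sign turned without 1 library ranged as follows: Glp1r week 4 (-0.14 to 0.061), in the mean (-0.030 to 0.026), in the CD slope (-0.0064 to 0.0044); Gcgr weeks 4 (-0.0063 to 0.15), 16 (-0.032 to 0.19); Gpr119 week 4 (-0.031 to 0.14); Ffar1 weeks 4 (-0.27 to 0.014), 12 (-0.19 to 0.059); Sstr3 weeks 4 (-0.067 to 0.15), 8 (-0.12 to 0.13), 16 (-0.15 to 0.019), 24 (-0.0093 to 0.25), in the mean (-0.0056 to 0.047); Galr1 week 4 (-0.13 to 0.083); Adra2a week 20 (-0.15 to 0.075), in the CD slope (-0.0033 to 0.0048); Gipr week 24 (-0.11 to 0.12); Chrm3 week 24 (-0.00082 to 0.18), late minus early (-0.056 to 0.017), in the CD slope (-0.0026 to 0.0025). Depth is not in the table and its limits were not measured.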
